A study of Homo sapiens with 3 samples.

Results

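The nuclear genes of oxidative phosphorylation were taken as the rows of the gene table that carried the KEGG pathway "Oxidative phosphorylation" in the authors' annotation, had a gene symbol and did not lie on the mitochondrial genome. Of 61806 genes in the table, 465 met this rule. They comprised 110 protein-coding genes with the prefixes NDUF, SDH, UQCR, COX, ATP5 and ATP6V, 9 further pathway genes without those prefixes (CYC1, TCIRG1, ATP6AP1, PPA1, PPA2, LHPP, ATP12A, ATP4A and ATP4B), 13 genes whose symbols name no pathway enzyme, 164 pseudogenes and 169 nuclear copies of mitochondrial genes. The first 119 are called the pathway genes below, and the pseudogenes and copies are described after them.

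RNA was sequenced from 3 libraries of KG1, labelled as a human acute myeloid leukemia cell line. The libraries labelled shUCP2#2 and shUCP2#3 came from cells given a lentiviral short hairpin RNA against UCP2, a proton and metabolite carrier of the inner mitochondrial membrane. The control library, labelled NC, came from cells given a vector control. All cells were grown in RPMI medium with fetal bovine serum, and cells positive for the virus were selected before harvest. The comparison asks which transcripts differed after UCP2 shRNA. It set the 2 shUCP2 libraries against the lone control, and no source states whether each library had a culture of its own. The p-values cover only variation between these libraries. They take the spread of a gene from genes of like abundance and not from its own values.

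The libraries held 16475165 gene counts in shUCP2#2, 17562153 in shUCP2#3 and 18375090 in the control. UCP2 itself had 608 and 649 counts in the shUCP2 libraries and 651 in the control, and its log2 fold change was 0.06 with SE 0.15 (edgeR adjusted p = 0.888), so the transcript did not separate the libraries by their labels. Of 14 myeloid progenitor markers of the labelled cell type, 6 passed 10 CPM (counts scaled to a common library total) in every library. Of 7 tested, 2 were higher (SPI1 and MECOM), against 6.25% of all genes tested. The other 5 did not pass, with negative log2 fold changes for CD33 (-0.15) and ANPEP (-0.35). CD34 had 10, 0 and 0 counts in shUCP2#2, shUCP2#3 and the control, and HLA-DRA and MPO had 0 in each. Of 20 erythroid and megakaryocyte markers, 14 passed 10 CPM in every library. Thus the RNA carried erythroid transcripts and lacked several defining markers of the labelled line. The fibroblast collagens COL1A1 and COL1A2 had 507 and 806 counts in shUCP2#2, 0 and 3 in shUCP2#3, and 0 and 2 in the control, so shUCP2#2 held transcripts that the other libraries lacked or nearly lacked. The mitochondrial ribosomal RNA MT-RNR1 had 24138 counts in shUCP2#2, 8068 in shUCP2#3 and 9399 in the control, and RN7SL1, an RNA of the signal recognition particle, had 543 and 136 in the shUCP2 libraries and 56 in the control. The part of these differences in RNA makeup in the results that follow was not tested.

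Oxidative phosphorylation takes place in the inner mitochondrial membrane. Complex I (NADH dehydrogenase) and complex II (succinate dehydrogenase) pass electrons to ubiquinone. Complex III passes them on to cytochrome c, and complex IV (cytochrome c oxidase) passes them to oxygen. Complexes I, III and IV pump protons, and ATP synthase (complex V) uses the resulting gradient to make ATP. KEGG places the V-ATPase, the proton pump of lysosomes and endosomes that uses ATP, in the same pathway. Most subunits are encoded in the nucleus, and many of their promoters are known to bind NRF1, GABP (an ETS factor) and YY1.

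The RefSeq promoters of 4 genes that differed between the libraries are shown because each holds a motif of these factors. They are not the full set: NDUFS1, which was lower and holds the ETS letters, is not shown. Each runs 5′ to 3′ on the gene's strand for 300 bases, 250 before the start site and 50 after it, in GRCh38.p14. Capitals mark the motif: AAGATGGCG for YY1, CCGGAAGT for ETS (here on the opposite strand, as ACTTCCGG) and GCGCATGCG for NRF1 (here on the opposite strand, as CGCATGCGC).
SDHB, chr1:17053983-17054282, minus strand, YY1: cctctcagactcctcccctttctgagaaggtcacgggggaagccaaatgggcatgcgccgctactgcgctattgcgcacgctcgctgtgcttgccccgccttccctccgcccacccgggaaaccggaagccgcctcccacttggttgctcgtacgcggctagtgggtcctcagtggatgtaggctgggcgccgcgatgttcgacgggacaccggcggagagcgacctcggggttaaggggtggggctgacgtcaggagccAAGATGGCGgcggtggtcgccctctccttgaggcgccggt
COX8A, chr11:63974370-63974669, plus strand, ETS: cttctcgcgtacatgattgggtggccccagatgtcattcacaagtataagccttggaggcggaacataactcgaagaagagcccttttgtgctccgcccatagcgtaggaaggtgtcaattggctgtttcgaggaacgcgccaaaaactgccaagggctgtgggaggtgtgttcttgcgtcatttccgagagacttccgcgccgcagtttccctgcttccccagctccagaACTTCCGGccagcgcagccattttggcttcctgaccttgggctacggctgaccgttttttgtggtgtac
NDUFS7, chr19:1383657-1383956, plus strand, NRF1 then YY1: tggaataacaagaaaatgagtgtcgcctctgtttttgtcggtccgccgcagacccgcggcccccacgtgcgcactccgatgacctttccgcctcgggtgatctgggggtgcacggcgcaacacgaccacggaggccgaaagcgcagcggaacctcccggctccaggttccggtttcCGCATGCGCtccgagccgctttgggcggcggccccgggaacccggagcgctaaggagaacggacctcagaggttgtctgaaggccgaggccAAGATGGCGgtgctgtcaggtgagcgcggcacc
ATP5PD, chr17:75046920-75047219, minus strand, ETS: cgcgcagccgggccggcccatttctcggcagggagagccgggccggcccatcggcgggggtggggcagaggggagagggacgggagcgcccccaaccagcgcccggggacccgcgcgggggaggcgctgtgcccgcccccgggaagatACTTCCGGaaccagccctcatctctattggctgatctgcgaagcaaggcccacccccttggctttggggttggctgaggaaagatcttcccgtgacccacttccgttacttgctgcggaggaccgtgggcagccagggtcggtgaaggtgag
In SDHB the YY1 letters began 10 bases from the start site, inside the transcript, and in NDUFS7 they began 17 bases from it. The ETS letters began 19 bases before the start site in COX8A and 102 before it in ATP5PD.

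More transcripts of the pathway were lower than higher in the shUCP2 libraries, and most did not pass the test. Of the 119 pathway genes, 102 had enough counts to be tested. Of these, 20 were lower, 2 were higher (ATP5PD and ATP6V1A) and 80 did not pass the edgeR quasi-likelihood test at an adjusted p of 0.05 over all 15232 genes tested. Of the tested pathway genes 19.6% were lower and 1.96% were higher, against 6.11% and 6.25% of all genes tested. The shares over all genes include 4425 genes under 1 FPKM, where 0.316% were lower and 2.35% higher. Only 1 tested pathway gene lay there, and shares at like level are given below. Without the abundance trend in the variance model no member passed. At an unadjusted p under 0.05 stood 11 of 126 tested members, against 1770 of all 15232 genes. By limma on log2 FPKM none passed either, with 17 to 35 of 121 members at that level, against 1726 to 2248 of 10937 genes. DESeq2 left 7 of the 20 lower and ATP6V1A higher among 102 members, against 616 of 8036 genes called either way. The share of members that DESeq2 called was thus near that of all genes. The median log2 fold change of the tested pathway genes was -0.18, against 0.02 over all genes tested. The 2 hairpins were also set against the control on their own, with the control shared. The medians were -0.19 for shUCP2#2 and -0.18 for shUCP2#3, against 0.01 and 0.00 over all genes. With shUCP2#2 left out, the library that held collagen transcripts, no residual degree of freedom remains, so the value of shUCP2#3 has no test.

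**Figure D1:**
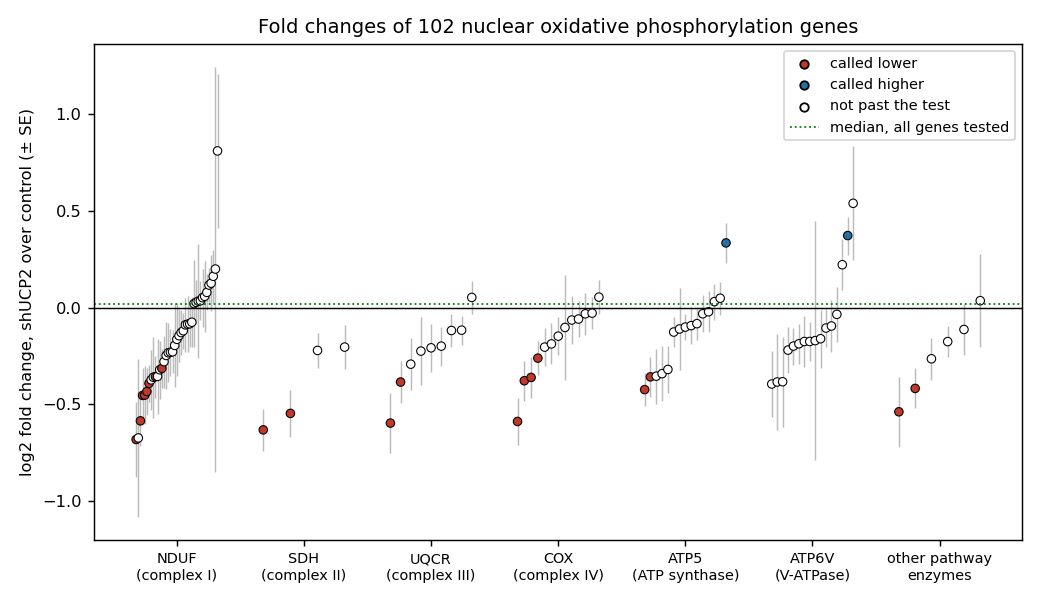
Fitted log2 fold change of shUCP2 over control (y axis, bars ± SE from edgeR) for the 102 tested pathway genes, grouped by symbol prefix on the x axis and ordered by value within each group. Red points mark the 20 genes that were lower, blue points the 2 that were higher and white points the 80 that did not pass, and the dotted line is the median of all genes tested, 0.02.

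Erythroid markers moved with this result. Of the 20, 16 were tested. Of these 9 were lower (56.25%) and 1 was higher (6.25%), against 6.11% and 6.25% of all genes tested. The list summed to 3575 CPM in shUCP2#2, 3602 in shUCP2#3 and 4672 in the control. HBG2, a fetal globin gene, had 15211 and 16496 counts in the shUCP2 libraries and 24738 in the control. GATA1, the main erythroid transcription factor, had 2874 and 2843 counts in the shUCP2 libraries and 3777 in the control. The part of the erythroid program in the respiratory result was not tested, and in bulk RNA fewer cells of a type and less RNA per cell cannot be told apart.

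Complex II had the most negative median of the prefix groups, -0.38. SDHA and SDHB form the catalytic arm that oxidizes succinate and carries the electrons through iron-sulfur clusters, and SDHC and SDHD anchor it in the membrane. SDHB (ENSG00000117118, chr1:17018722-17054032 in GRCh38) had 1246 counts in shUCP2#2, 1382 in shUCP2#3 and 2195 in the control. Both shUCP2 libraries lay below the control also per length and depth, with 32.5 and 33.9 FPKM against 51.4 FPKM. The log2 fold change of SDHB was -0.63 with SE 0.11 (adjusted p = 5.78e-07), a fold of 0.645 with a 95% interval of 0.556 to 0.748. SDHA had 6.7 and 7.06 FPKM in the shUCP2 libraries and 10.0 FPKM in the control, and a log2 fold change of -0.55 with SE 0.12 (adjusted p = 0.000212). The anchors moved less: SDHD had a log2 fold change of -0.22 (adjusted p = 0.102) and SDHC one of -0.20 (adjusted p = 0.275). Thus 2 of 4 genes of the complex were lower and none was higher, against 6.11% and 6.25% of all genes tested.

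SDHA has near-identical copies elsewhere in the genome, and the counting could split its reads among them. SDHAP1 had 147 and 161 counts in the shUCP2 libraries and 263 in the control, with a log2 fold change of -0.66 (adjusted p = 0.0748). SDHAP4 had 270 and 260 counts in the shUCP2 libraries and 284 in the control. The level of SDHA is therefore uncertain by what these copies hold, while no copy of SDHB passed the filter on low counts.

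**Figure D2:**
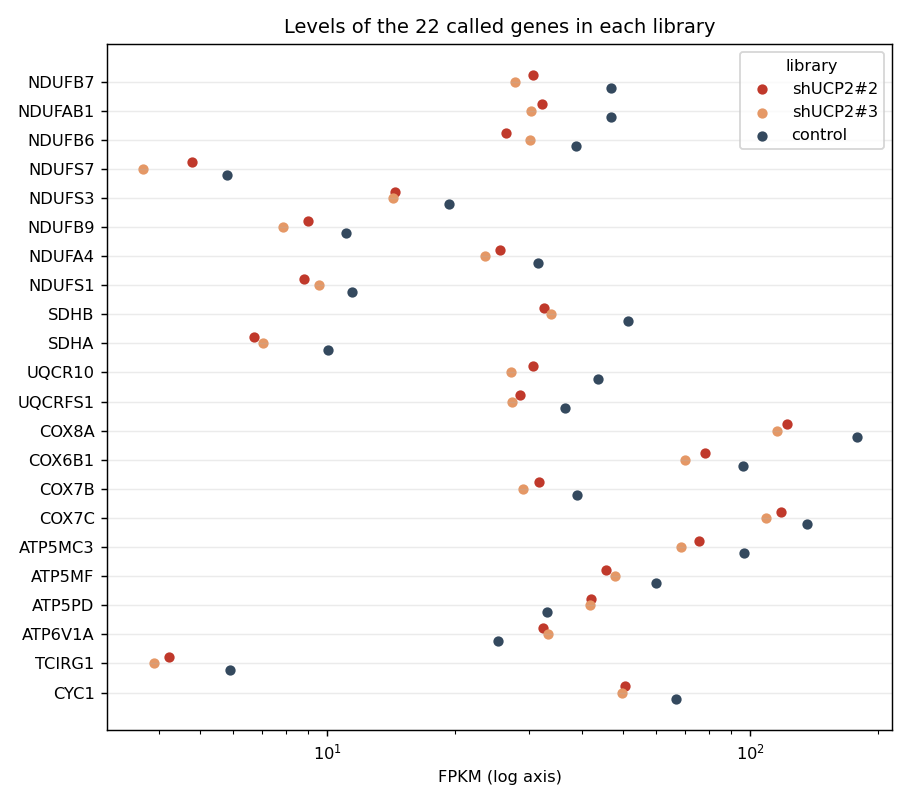
FPKM of the 22 pathway genes that passed the test (x axis, log scale), 1 row per gene and 1 point per library, with the shUCP2 libraries in red and orange and the control in dark blue. In 20 rows both shUCP2 points lie left of the control, for example SDHB with 32.5 and 33.9 against 51.4 FPKM, and in the rows of ATP5PD and ATP6V1A they lie right of it. The rows were picked by these same libraries, so the side on which the points lie adds no support.

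All 39 NDUF genes were tested. Of these, 8 were lower (20.5%) and none was higher, against 6.11% and 6.25% of all genes tested. The other 31 did not pass, and the median log2 fold change of the NDUF genes was -0.16. NDUFB7 (chr19:14566078-14572066), a small subunit on the outer face of the membrane arm, had 270 counts in shUCP2#2, 261 in shUCP2#3 and 460 in the control, and 30.6 and 27.8 FPKM against 46.8 FPKM. Both libraries were far below the control, and the log2 fold change of -0.68 with SE 0.19 (adjusted p = 0.00644) was the most negative among NDUF genes. NDUFAB1, the mitochondrial acyl carrier protein, which also serves fatty acid and lipoic acid synthesis, had 822 and 825 counts in the shUCP2 libraries and 1334 in the control. The shUCP2 libraries were close together and below the control, with a log2 fold change of -0.59 with SE 0.13 (adjusted p = 0.000234). NDUFB6 had 605 and 735 counts in the shUCP2 libraries and 988 in the control, a log2 fold change of -0.45. NDUFB9 had 2469 and 2296 counts in the shUCP2 libraries and 3379 in the control, a log2 fold change of -0.39. These 2 genes encode further accessory subunits of the membrane arm, and in neither did the shUCP2 libraries reach the control.

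Core subunits of the peripheral arm, where NADH is oxidized and ubiquinone is reduced, made up 3 of the 8 (NDUFS1, NDUFS3 and NDUFS7). NDUFS1, the largest subunit and a carrier of iron-sulfur clusters, had 1770 and 2045 counts in the shUCP2 libraries and 2555 in the control, with a log2 fold change of -0.31 (adjusted p = 0.0198). NDUFS3 had 1072 and 1132 counts in the shUCP2 libraries and 1606 in the control, a log2 fold change of -0.43. NDUFS7, which holds the last iron-sulfur cluster before ubiquinone, had 589 and 480 counts in the shUCP2 libraries and 792 in the control, a log2 fold change of -0.45 with SE 0.15 (adjusted p = 0.0276). Its 2 hairpin values differed more, -0.26 for shUCP2#2 and -0.66 for shUCP2#3, though both lay below the control. NDUFA4, named as a complex I gene but now placed in complex IV, had 1457 and 1436 counts in the shUCP2 libraries and 2001 in the control, a log2 fold change of -0.36 (adjusted p = 0.0135).

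Other core subunits did not pass. NDUFV2, an iron-sulfur subunit of the NADH-oxidizing tip, had a log2 fold change of 0.16 (adjusted p = 0.545), and NDUFV1, which binds FMN and NADH, one of -0.12 (adjusted p = 0.5). NDUFA1, the most abundant NDUF transcript per length, had 220.2 and 196 FPKM in the shUCP2 libraries and 204 FPKM in the control, so the control lay between the hairpins. NDUFS5, the next in level, had 156 and 151 FPKM in the shUCP2 libraries and 180 FPKM in the control, but did not pass (log2 fold change -0.23, adjusted p = 0.191). NDUFA7 rested on few reads, 39 and 77 counts in the shUCP2 libraries against 99 in the control, and its log2 fold change of -0.67 had SE 0.41 (adjusted p = 0.333).

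Complex I is built from modules that assemble apart and then join. The genes were grouped this way after the values were seen. In the ND5 module at the far end of the membrane arm, 4 of 7 genes were lower (NDUFB6, NDUFB7, NDUFB9 and NDUFAB1), with a median of -0.39. The share that was lower was 20.5% over all NDUF genes and 6.11% over all genes tested. In the Q module 2 of 4 genes were lower (NDUFS3 and NDUFS7), with a median of -0.26, and in the N module 1 of 9 (NDUFS1). None of the 10 genes of the ND1 and ND2 modules or the 5 of the ND4 module passed, with 1 in each group at an unadjusted p under 0.05 by edgeR. No test compared the modules. NDUFB8, also of the ND5 module, had 377 and 385 counts in the shUCP2 libraries and 395 in the control, so the module did not move as a whole.

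**Figure D3:**
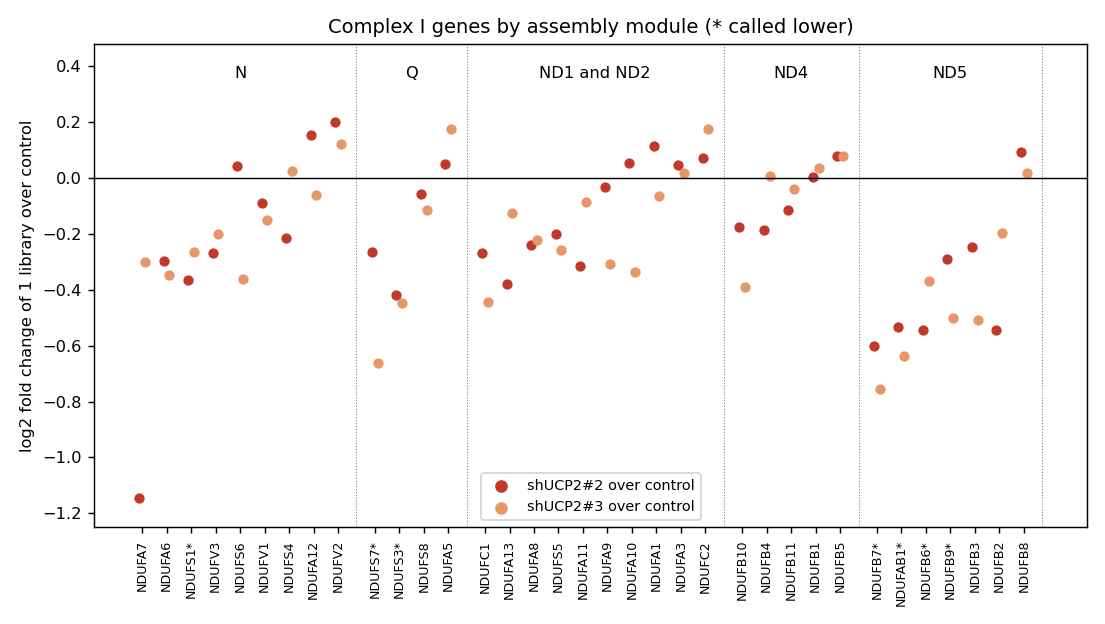
Log2 fold change of each shUCP2 library over the shared control (y axis, from CPM with a prior count of 2) for complex I genes sorted by assembly module (x axis), with shUCP2#2 in red and shUCP2#3 in orange and asterisks on genes that were lower. The ND5 module holds 4 asterisks among 7 genes, the Q module 2 among 4 and the N module 1 among 9. The ND1, ND2 and ND4 modules hold none. Of all NDUF genes 20.5% were lower, and the modules were grouped after the values were seen.

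In complex III, 2 of 9 UQCR genes were lower (22.2%, against 6.11% of all genes tested) and none was higher. Their median log2 fold change was -0.21. UQCR10, a small membrane subunit beside the catalytic core, had 492 counts in shUCP2#2, 465 in shUCP2#3 and 782 in the control. Both shUCP2 libraries were below the control, and the log2 fold change was -0.60 with SE 0.15 (adjusted p = 0.00206). UQCRFS1, the Rieske iron-sulfur protein, had 1448 and 1481 counts in the shUCP2 libraries and 2064 in the control, a log2 fold change of -0.39 with SE 0.11 (adjusted p = 0.00617). Cytochrome c1, the catalytic subunit that hands electrons to cytochrome c, is encoded by CYC1, which has no UQCR prefix. CYC1 had 1633 and 1711 counts in the shUCP2 libraries and 2410 in the control, a log2 fold change of -0.42 with SE 0.10 (adjusted p = 0.00118). Hence both catalytic subunits of complex III that the nucleus encodes were lower.

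The core proteins of complex III, which carry no redox group, did not pass. UQCRC2 had 75.7 and 75.3 FPKM in the shUCP2 libraries and 81.9 FPKM in the control, and UQCRC1 had a log2 fold change of -0.20 (adjusted p = 0.213). UQCRH, the hinge protein and the second most abundant pathway transcript per length, had 549 and 512 FPKM in the shUCP2 libraries and 575 FPKM in the control, a log2 fold change of -0.12 (adjusted p = 0.376). UQCRHL is its near-identical copy, with 398 and 365 counts in the shUCP2 libraries and 482 in the control, and reads could be split between them. UQCRB, which binds ubiquinone, was at 23.4 and 24.6 FPKM in the shUCP2 libraries and 23.1 FPKM in the control, the highest fold change of the group at 0.05.

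Iron-sulfur subunits of complexes I to III were grouped after the values were seen. Of 7 such genes, 4 were lower, against 6.11% of all genes tested: NDUFS1, NDUFS7, SDHB and UQCRFS1. NDUFS8, NDUFV1 and NDUFV2 did not pass, with log2 fold changes of -0.09, -0.12 and 0.16. The median of the group was -0.31.

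Of 19 COX genes, 13 were tested, and 4 of these were lower (30.8%, against 6.11% of all genes tested), none was higher and 9 did not pass. The 4 encode small structural subunits around the catalytic core. COX8A (ENSG00000176340, chr11:63974620-63976543), the form of subunit VIII found in most tissues, had 995 counts in shUCP2#2, 1001 in shUCP2#3 and 1620 in the control. Per length this was 122 and 115 FPKM in the shUCP2 libraries and 178 FPKM in the control. Its log2 fold change was -0.59 with SE 0.12 (adjusted p = 5.23e-05), a fold of 0.665 with a 95% interval of 0.564 to 0.784. COX6B1, which faces the intermembrane space, had 78.1 and 70.0 FPKM in the shUCP2 libraries and 96.1 FPKM in the control (log2 fold change -0.38, adjusted p = 0.004). COX7B had 31.6 and 28.99 FPKM in the shUCP2 libraries and 38.9 FPKM in the control (log2 fold change -0.36, adjusted p = 0.00961). COX7C, the next most abundant of the 4 per length after COX8A, had 118 and 109 FPKM in the shUCP2 libraries and 136 FPKM in the control (log2 fold change -0.26, adjusted p = 0.0262). In each of the 4, the shUCP2 libraries lay below the control, which their choice by these same libraries makes likely.

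The larger nuclear subunits of complex IV did not pass. COX4I1, the regulatory subunit that binds ATP, had 77.5 and 72.9 FPKM in the shUCP2 libraries and 76.7 FPKM in the control, so the control lay between the hairpins. COX6C had 66.8 and 66.2 FPKM in the shUCP2 libraries and 69.2 FPKM in the control. COX5A and COX5B had log2 fold changes of -0.15 and -0.20 and did not pass. COX7A2L, which joins complexes III and IV into supercomplexes, had the highest value of the tested protein-coding COX genes, 0.05. COX17, the copper chaperone, differed between the hairpins, with 136 counts in shUCP2#2 and 213 in shUCP2#3 against 201 in the control, and hairpin values of -0.40 and 0.14.

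Some subunits have isoforms kept for muscle, heart, lung or testis. COX4I2, COX6A2, COX7B2 and COX8C had 0 counts in every library, which allows at most 0.182, 0.171 and 0.163 CPM in shUCP2#2, shUCP2#3 and the control. COX7A1 had 2, 0 and 0 counts in that order of libraries, and COX6B2 had 0, 1 and 8. NDUFA4L2, a paralog of NDUFA4 known as a target of hypoxia signalling, was the only one of 7 such isoforms to be tested. It had 106 and 85 counts in the shUCP2 libraries and 59 in the control, and its log2 fold change of 0.81 with SE 0.40 did not pass (adjusted p = 0.199).

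In ATP synthase, 15 of 17 ATP5 genes were tested, of which 2 were lower, 1 was higher and 12 did not pass. These were 13.3% lower and 6.67% higher, against 6.11% and 6.25% of all genes tested. All lay at a mean of 17.2 FPKM or more. Of all genes at 10 to 30, 30 to 100 and 100 FPKM or more, 12.5%, 15.8% and 13.5% were lower. The shares higher there were 9.99%, 13.04% and 10.8%. The ATP5 share that was lower was thus near that of genes of like level, and the share that was higher was below it. The median log2 fold change of the ATP5 genes was -0.10. ATP5MC3 is 1 of 3 genes that encode the same subunit of the proton-driven c ring. ATP5MC3 (chr2:175176258-175181710) had 4844 counts in shUCP2#2, 4681 in shUCP2#3 and 6903 in the control, and its log2 fold change was -0.42 with SE 0.08 (adjusted p = 2.34e-05). Its paralog ATP5MC1 had 676 and 728 counts in the shUCP2 libraries and 968 in the control, a log2 fold change of -0.35 that did not pass (adjusted p = 0.0814). The other paralog, ATP5MC2, had 3131 and 3007 counts in the shUCP2 libraries and 3247 in the control, a log2 fold change of 0.03. Per length, ATP5MC3 was the most abundant of the 3, at 75.7 and 68.6 FPKM in the shUCP2 libraries and 96.8 FPKM in the control. ATP5MF, a membrane subunit, had 45.6 and 48.01 FPKM in the shUCP2 libraries and 59.9 FPKM in the control (log2 fold change -0.36, adjusted p = 0.00783). None of the 5 genes of the catalytic F1 head passed, with 1 at an unadjusted p under 0.05 by edgeR.

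ATP5PD (ENSG00000167863, chr17:75038863-75046985), the d subunit of the peripheral stalk, was higher. It had 2231 counts in shUCP2#2, 2368 in shUCP2#3 and 1968 in the control, and 41.9 and 41.7 FPKM against 33.2 FPKM. The shUCP2 libraries agreed closely and lay above the control, with a log2 fold change of 0.33 with SE 0.10 (adjusted p = 0.014) that DESeq2 did not call. ATP5PD lies inside KCTD2, which runs on the opposite strand. KCTD2 had 537 and 550 counts in the shUCP2 libraries and 436 in the control, a log2 fold change of 0.43 (adjusted p = 0.0708), and whether the counting used strand is not stated in the labels or methods. The other stalk genes, ATP5PB, ATP5PF and ATP5PO, had log2 fold changes of -0.08, -0.32 and -0.03 and did not pass. ATP5F1B, the catalytic beta subunit and the most abundant pathway transcript per length, had 609.7 and 636 FPKM in the shUCP2 libraries and 667 FPKM in the control (log2 fold change -0.10, adjusted p = 0.388). ATP5F1C, the rotating gamma subunit, had 154 and 161 FPKM in the shUCP2 libraries and 152 FPKM in the control.

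The V-ATPase differed from the respiratory chain in the number of calls. Of 22 ATP6V genes, 16 were tested, none was lower, 1 was higher and 15 did not pass, against 6.11% lower and 6.25% higher of all genes tested. Of the 16, 3 had an unadjusted p under 0.05 by edgeR and none was lower by DESeq2. Their median log2 fold change was -0.17, close to that of the NDUF genes, so the lack of lower calls does not show a different response, and that difference was not tested. ATP6V1A (chr3:113747033-113812056), the catalytic subunit that splits ATP, had 2722 counts in shUCP2#2, 2993 in shUCP2#3 and 2381 in the control. It had 32.3 and 33.3 FPKM in the shUCP2 libraries and 25.3 FPKM in the control, and a log2 fold change of 0.37 with SE 0.10 (adjusted p = 0.00293). TCIRG1, the a3 subunit of the membrane sector known from osteoclasts, went the other way. It had 320 and 315 counts in the shUCP2 libraries and 498 in the control, a log2 fold change of -0.54 with SE 0.18 (adjusted p = 0.0298), and did not pass without the filter on low counts.

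The other V-ATPase genes did not pass. ATP6V1F, the most abundant of them per length, had 138 and 131 FPKM in the shUCP2 libraries and 153 FPKM in the control (log2 fold change -0.19, adjusted p = 0.275). ATP6V0D1 had the most negative value, -0.40 (adjusted p = 0.113). ATP6V1E1 had 46.5 and 48.1 FPKM in the shUCP2 libraries and 54.3 FPKM in the control. Its testis paralog ATP6V1E2 had 1.48 and 2.37 FPKM in the shUCP2 libraries and 1.32 FPKM in the control, and only shUCP2#3 stood apart (log2 fold change 0.54, adjusted p = 0.263). ATP6V0A4 and ATP6V1G3, known from kidney, had 0 counts in every library. The gastric proton pump gene ATP4B and the related ATP12A also had 0.

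The control held the largest share of counts for every complex. The pathway genes took 1.22% of counts in shUCP2#2 (exact Clopper-Pearson 95% interval 1.21 to 1.22%), 1.21% in shUCP2#3 (1.20 to 1.21%) and 1.33% in the control (1.33 to 1.34%). NDUF genes took 0.233% and 0.231% in the shUCP2 libraries and 0.257% in the control, and SDH genes 0.0381% and 0.0391% against 0.0496%. UQCR genes took 0.175% and 0.170% in the shUCP2 libraries and 0.189% in the control, and COX genes 0.185% and 0.174% against 0.198%. ATP5 genes took 0.398% and 0.403% in the shUCP2 libraries and 0.432% in the control, and ATP6V genes 0.103% and 0.106% against 0.109%. The intervals cover counting error only.

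**Figure D4:**
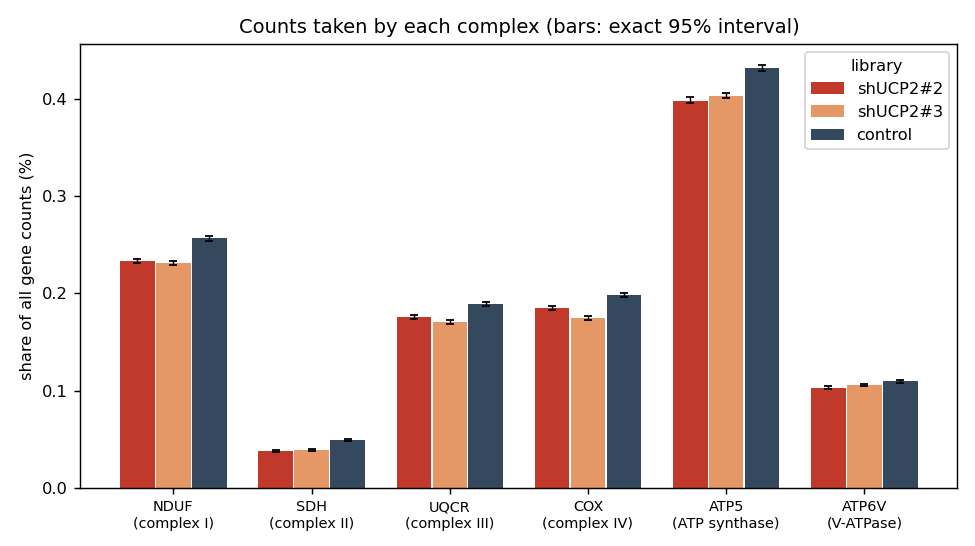
Share of all gene counts (y axis, percent, from 0) taken by the protein-coding genes of each prefix (x axis) in shUCP2#2, shUCP2#3 and the control, with exact 95% intervals. The control bar is the tallest of its 3 in each group, for example 0.0496% for SDH against 0.0381% and 0.0391% in the shUCP2 libraries.

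Level bore on how many genes could pass. Between 30 and 100 FPKM, 11 of 37 tested pathway genes were lower and 2 were higher, against 15.8% and 13.04% of all genes of that level. Between 10 and 30 FPKM, 2 of 25 were lower and none was higher, against 12.5% and 9.99% of all genes, and at 100 FPKM or more 2 of 11 were lower and none was higher, against 13.5% and 10.8%. Between 1 and 10 FPKM, 5 of 28 were lower and none was higher, against 5.63% and 6.11% of all genes. The median log2 fold change of the pathway genes was negative at each level. It ran from -0.11 between 10 and 30 FPKM to -0.20 between 30 and 100 FPKM. The median of all genes lay at -0.02 and -0.03 in these ranges. Below 1 FPKM it was 0.18 over 4425 genes, among them only 1 pathway gene, and these genes raise the median over all genes tested.

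**Figure D5:**
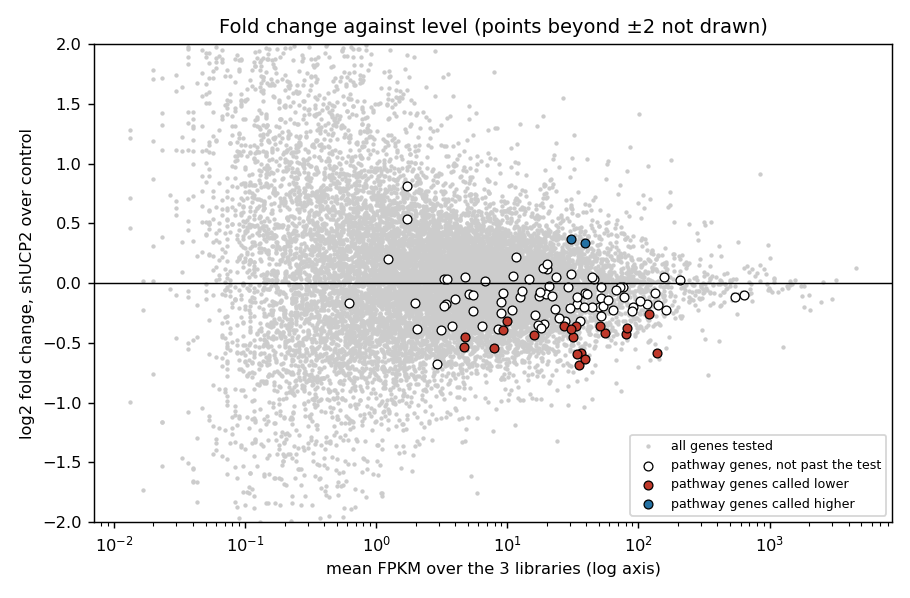
Log2 fold change of shUCP2 over control (y axis) against mean FPKM of the 3 libraries (x axis, log scale) for all genes tested (grey) and the pathway genes (white, red where lower, blue where higher). Between 30 and 100 FPKM, 11 of 37 pathway genes are red and 2 are blue.

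The hairpins were split for the 13 subunits encoded by the mitochondrial genome. These took 1.45% of counts in shUCP2#2, 0.946% in shUCP2#3 and 1.21% in the control, so the hairpins lay on either side of the control, and their hairpin medians were 0.38 and -0.27. In the fit 2 were lower (MT-CO1 and MT-CO3) and 4 were higher (MT-ND1, MT-ND5, MT-ND6 and MT-CYB), against 6.11% and 6.25% of all genes tested. After scaling for depth, MT-ND5 was above the control in both shUCP2 libraries, with hairpin values of 0.78 for shUCP2#2 and 0.18 for shUCP2#3, and MT-ND6 with 0.86 and 0.05. MT-ND1 (0.51 and -0.17) and MT-CYB (0.63 and -0.09) were above it only in shUCP2#2. MT-CO1 (0.04 and -0.48) and MT-CO3 (0.05 and -0.57) were below it only in shUCP2#3. The spread used in the test was not each gene's own, so a split between hairpins did not enter it.

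The nuclear copies of mitochondrial genes were split in the same direction in sum, at 0.0177% of counts in shUCP2#2, 0.0103% in shUCP2#3 and 0.0123% in the control. Of 169 such copies, 154 had 0 counts in every library and 3 were tested, none of which passed, with 1 at an unadjusted p under 0.05 by edgeR and none called by DESeq2. MTATP6P1 on chromosome 1 had 1930 counts in shUCP2#2, 1101 in shUCP2#3 and 1384 in the control, and hairpin values of 0.64 and -0.27. MTND2P28, on the same chromosome, had 881 and 615 counts in the shUCP2 libraries and 794 in the control, again with the control between the hairpins. Reads of the mitochondrial genome can be counted at these copies, so their source is uncertain.

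Of 164 pseudogenes of the subunits, 125 had 0 counts in every library and 13 were tested. Of these 1 was higher (7.69%), near the 6.25% of all genes tested, and none was lower. One passed: COX7A2P1 (chr14:67652300-67652614, minus strand) had 40 counts in shUCP2#2, 67 in shUCP2#3 and 8 in the control, a log2 fold change of 2.82 with SE 0.76 (adjusted p = 0.00356). Its hairpin values were 2.21 for shUCP2#2 and 2.83 for shUCP2#3. Its parent COX7A2 did not rise with it, with 1628 and 1735 counts in the shUCP2 libraries and 2066 in the control. COX7A2P1 lies inside VTI1B, 592 bases past the end of ARG2, which encodes mitochondrial arginase. ARG2 had 4021 and 4138 counts in the shUCP2 libraries and 2001 in the control, a log2 fold change of 1.14 with SE 0.10 (adjusted p = 9.92e-29). VTI1B had 1026 and 1117 counts in the shUCP2 libraries and 1234 in the control. The part of reads from ARG2 in the pseudogene's counts was not tested. ATP5MC2P4 had 25, 3 and 22 counts in shUCP2#2, shUCP2#3 and the control, the widest split between hairpins among the tested members.

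The 13 genes whose symbols name no pathway enzyme held 8 that were tested. Of these 1 was higher (12.5%, against 6.25% of all genes tested) and none was lower. IBTK, an inhibitor of Bruton's tyrosine kinase, had 2140 and 2292 counts in the shUCP2 libraries and 1956 in the control, a log2 fold change of 0.29 with SE 0.10 (adjusted p = 0.0428) that did not pass without a scaling factor or without the filter. KANK1, which acts on the actin cytoskeleton, had 165 and 281 counts in the shUCP2 libraries and 239 in the control, on either side of it. With these and the copies, 126 of 465 members were tested. Of these 20 were lower (15.9%) and 4 were higher (3.17%), against 6.11% and 6.25% of all genes tested.

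Factors that build the complexes were also read from the same fit. Of 19 complex I assembly factors, all tested, 4 were lower (21.1%, against 6.11% of all genes tested), none was higher and the median was -0.28. NDUFAF5, a hydroxylase of NDUFS7, had 126 and 136 counts in the shUCP2 libraries and 251 in the control (log2 fold change -0.83, adjusted p = 0.0243). FOXRED1, ACAD9 and AIFM1 had log2 fold changes of -0.57, -0.55 and -0.37. BCS1L, which inserts the Rieske protein UQCRFS1, had 199 and 156 counts in the shUCP2 libraries and 313 in the control (log2 fold change -0.70, adjusted p = 0.033) and was the 1 of 6 complex III factors that was lower (16.7%). Of 23 tested complex IV factors, 2 were lower (8.7%, near the 6.11% of all genes), COA4 with a log2 fold change of -0.74 and COA3 with -0.87. COA4 had 501 and 549 counts in the shUCP2 libraries and 948 in the control (adjusted p = 2.08e-05).

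No factor of complex II (4 tested, 0 at an unadjusted p under 0.05) or complex V (6 tested, 1 at an unadjusted p under 0.05) passed by edgeR. Among V-ATPase accessory genes, 2 of 10 were higher, against 6.25% of all genes tested, and none was lower. NCOA7 had 8.28 and 8.44 FPKM in the shUCP2 libraries and 4.63 FPKM in the control (log2 fold change 0.85, adjusted p = 1.66e-07). DMXL2, a part of the machinery that joins the V-ATPase sectors, had 9.7 and 11.3 FPKM in the shUCP2 libraries and 6.89 FPKM in the control (log2 fold change 0.60, adjusted p = 4.64e-07). Of 19 tested genes for electron carriers and ubiquinone synthesis, 2 were lower (10.5%, against 6.11% of all genes tested) and the median was -0.06. They were COQ9 with a log2 fold change of -0.49 and DHODH, which feeds electrons from pyrimidine synthesis to ubiquinone, with -0.82.

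Of 14 tested genes that express mitochondrial DNA, 4 were lower (28.6%, against 6.11% of all genes tested), none was higher (against 6.25%) and the median was -0.30. POLRMT, the mitochondrial RNA polymerase, had 496 and 530 counts in the shUCP2 libraries and 897 in the control, a log2 fold change of -0.70 with SE 0.15 (adjusted p = 0.000103). TUFM, the mitochondrial elongation factor Tu, had 110 and 99.5 FPKM in the shUCP2 libraries and 147 FPKM in the control, a log2 fold change of -0.49. SSBP1 and GFM1 had log2 fold changes of -0.42 and -0.38.

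Of 18 tested transcriptional regulators of respiratory genes, none was lower and 2 were higher (11.1%, against 6.25% of all genes tested). GABPA, the DNA-binding subunit of GABP, had 1078 and 1241 counts in the shUCP2 libraries and 953 in the control (log2 fold change 0.39, adjusted p = 0.0286). TFE3, a regulator of lysosomal genes, had 1294 and 1377 counts in the shUCP2 libraries and 1076 in the control (log2 fold change 0.42, adjusted p = 0.0098). PPARGC1A, a coactivator that drives mitochondrial genes in muscle and brown fat, had 3, 1 and 0 counts in shUCP2#2, shUCP2#3 and the control.

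Promoter letters were searched on both strands in the 92 of 119 pathway genes that matched the RefSeq table of 27305 genes. The NRF1 letters were in 12 of them (13%), against 2.34% of all genes in the table and 4.43% of those tested. ETS letters were in 13 (14.1%), against 4.95% of all genes and 10.1% of those tested, and YY1 letters in 9 (9.78%), against 2.14% and 4.70%. None of the 3 words lies within another, and NRF1 words on opposite strands can share bases. Among the 15 matched genes that were lower, 1 held the NRF1 letters (NDUFS7), 2 the ETS letters (COX8A and NDUFS1) and 2 the YY1 letters (NDUFS7 and SDHB). Genes with the NRF1 letters had a median log2 fold change of -0.11 over 12 genes, against -0.19 over 68 without them. For ETS these medians were -0.21 over 13 genes and -0.18 over 67, and for YY1 -0.32 over 9 genes and -0.18 over 71. A match of letters in a window is a description and not a bound site.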

How the data were processed

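RNA of 3 KG1 libraries was read from the authors' table of 61806 genes. Per the labels, the authors trimmed reads with cutadapt 1.9.1, aligned them to GRCh38 with HISAT2 2.2.1, used SAMtools 0.1.19, counted with HTSeq 0.6.1 and named Cufflinks 2.2.1 and DESeq2. For the annotation release and the strand setting the entry is: not given in the sources used here. The deposited extraction text describes a DNA kit, although the libraries are labelled as total RNA. The deposited counts are whole reads per gene and not normalized. The deposited FPKM values are those counts scaled by exonic length and by library total.

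Counts were tested with edgeR 4.0.16 (R 4.3.3, quasi-likelihood F test, two-sided, TMM scaling, filterByExpr, Benjamini-Hochberg adjustment over 15232 genes, threshold 0.05), with shUCP2#2 and shUCP2#3 against the control. This leaves 1 residual degree of freedom, and the prior degrees of freedom of the variance were infinite. The SE and p of a gene therefore took its spread wholly from the trend over genes of like abundance. The lone control is assumed to vary like the shUCP2 libraries. "Lower" and "higher" are used of genes past this test. Such genes were picked by these same libraries, so the side of the control on which their libraries lie adds no support. Each hairpin was also set against the control as a difference of log2 CPM (counts scaled to a common library total) with a prior count of 2, without a test. The depth, 16475165 to 18375090 counts, allows at most 0.182 to 0.163 CPM where a gene has 0 counts (3 counts), counting error only. The filter can pass a gene on 1 library.

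The members and lists were chosen with earlier results of these data known. The genes named were all members past the test, the 2 most abundant and the extreme fold changes of each prefix group (mean FPKM of at least 1), up to 5 members with opposite hairpin values, paralogs of 1 subunit and, of the other lists, those past the test and up to 3 more. Subunits named beside them to complete a complex, and the complex I modules, iron-sulfur and ATP synthase groups, were chosen after their values were seen. The lists were assembly factors of complexes I to V, V-ATPase accessory genes, electron carriers, mitochondrial subunits, regulators, mitochondrial DNA expression, muscle and heart isoforms, and myeloid, erythroid, monocyte, lymphoid and fibroblast or epithelial markers. In the last 3, monocyte markers had 3 of 8 tested and lymphoid 3 of 9 with none past the test. All 12 fibroblast or epithelial markers were tested and 6 were higher, against 6.25% of all genes tested. COL1A1, COL1A2, COL3A1, DCN and LUM had 507, 806, 457, 403 and 187 counts in shUCP2#2 and at most 5 in either other library. Their calls thus rested on shUCP2#2 alone. PDGFRB had 48, 20 and 4 counts in shUCP2#2, shUCP2#3 and the control. EPCAM, KRT8, KRT18, KRT19, CDH1 and THY1 did not pass. Gene types came from GENCODE 29 and promoters from RefSeq GRCh38.p14. Alternatives were RLE or no scaling, other filters, no abundance trend, DESeq2 1.42.0, limma 3.58.1 on log2(FPKM + 1), + 0.1 or + 5, and each hairpin alone. The script was tested on simulated data. Columns of the authors' own comparisons were not used. One gene is counted in the totals but is not reported here.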

Additional observations from a re-analysis of the deposited data

How the results depend on the processing

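Of the 126 tested members, 20 were lower, and 20 with RLE factors, 20 without a factor, 19 without a count filter and 20 with a mean FPKM of at least 1. The abundance trend of the variance model carried the calls: without it 0 members were lower and 0 higher (11 at an unadjusted p under 0.05), with 0 calls over all genes (1770 at an unadjusted p under 0.05). By DESeq2 7 members were lower (ATP5MC3, COX8A, CYC1, NDUFAB1, NDUFB9, SDHA and SDHB) and 1 was higher (ATP6V1A), with 22 at an unadjusted p under 0.05. These calls were among 102 members, against 616 of 8036 genes called either way. By limma with pseudocounts of 1, 0.1 and 5, 0 were lower and 0 higher. At an unadjusted p under 0.05 by limma stood 25, 17 and 35 of 121 members, against 1917, 1726 and 2248 of 10937 genes. Higher members numbered 4, and 4 with RLE factors, 3 without a factor, 3 without a count filter (IBTK lost in both; TCIRG1 was the lower one lost without the filter) and 6 with a mean FPKM of at least 1. The median log2 fold change of the tested members, -0.15, was -0.13 with a mean FPKM of at least 1, -0.12 by limma with a pseudocount of 1 and -0.10 with 5. It was -0.15 with hairpin 3 alone and -0.14 with hairpin 2 alone. KANK1, at -0.00094, turned to 0.0021 without a factor and to 0.000199 without a filter. Leaving out the control was not possible, since it is the only one. No paired analysis was possible because the groups share no replicate number. The lone control limits every value.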

Other observations

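Genes next to members that passed were read for shared counts. NDUFS3 overlaps PTPMT1, a phosphatase of cardiolipin synthesis on the same strand, which had 224 and 193 counts in the shUCP2 libraries and 364 in the control (log2 fold change -0.69, edgeR adjusted p = 0.0204). TECR, an enzyme of fatty acid elongation that ends 98 bases from the end of NDUFB7 on the other strand, had 1579 and 1450 counts in the shUCP2 libraries and 2129 in the control (log2 fold change -0.38, edgeR adjusted p = 0.00646). TATDN1, which overlaps NDUFB9 on the other strand, had 999 and 1110 counts in the shUCP2 libraries and 911 in the control, opposite to NDUFB9. These neighbours were named after their values were seen.

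Over all genes tested, the share called varied with gene length, while the median log2 fold change had no steady course. That median was 0.11 below 1000 exonic bases, -0.05 from 2000 to 4000 and 0.09 at 8000 or more. Below 1000 exonic bases, 3 of 10 pathway genes were lower and none was higher, against 1.33% and 2.12% of all genes. Among genes of 1000 to 2000 exonic bases, 5 of 21 pathway genes were lower and none was higher, against 6.12% and 1.89% of all genes. From 2000 to 4000, 6 of 33 were lower and 1 was higher, against 7.31% and 3.35%. From 4000 to 8000, 3 of 24 were lower and 1 was higher, against 7.03% and 6.62%. With at least 8000 exonic bases, 3 of 14 pathway genes were lower and none was higher, against 4.89% and 12.3% of all genes. The median log2 fold change of the pathway genes was below that of all genes in each of the 5 length classes.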
